A study of Homo sapiens with 6 samples.

Results

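The 10 genes described here are the cadherins CDH1, CDH2, CDH6 and CDH11 and the transcription factors SNAI1, SNAI2, TWIST1, TWIST2, ZEB1 and ZEB2. They were taken as a fixed list of gene symbols and matched to the Ensembl gene ids of the count tables, where all 10 were found among 60483 ids. Poly(A) RNA was sequenced in 6 libraries from T98G, a human cell line established from a glioblastoma. In 2 libraries (oeSRPK1) the cells carried a transiently transfected pcDNA3.1 plasmid with the full-length coding sequence of SRPK1, a kinase of serine/arginine-rich splicing factors. In 2 others (shSRPK1) they carried a transiently transfected pLKO.1 plasmid with a short hairpin against SRPK1, and the remaining 2 (NT) were untreated cells. Both plasmids went in with a lipid reagent. Cells given an empty or control plasmid were not analysed here, and in a comparison with NT the construct and its transfection cannot be told apart. The labels say only that sequencing was done in duplicate and do not say whether replicates were grown apart. The p-values therefore reflect the scatter of these libraries, which can be technical.

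Classical cadherins are calcium-dependent adhesion proteins that join neighbouring cells and bind catenins inside the cell. CDH1 (E-cadherin) is the cadherin of epithelia, while CDH2 (N-cadherin), CDH6 (K-cadherin) and CDH11 (OB-cadherin) are found on neural, renal and mesenchymal cells. SNAI, TWIST and ZEB factors bind E-box sequences in DNA and can repress CDH1, and a change of cells from an epithelial to a mesenchymal state (EMT) is commonly described through these genes.

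Reads counted in genes ranged from 3891549 in oeSRPK1 2 to 22691215 in oeSRPK1 1, and from 9891606 to 13650909 in the shSRPK1 and NT libraries. SRPK1 had 190 and 168 CPM (reads relative to the library total, with TMM scaling) in oeSRPK1, 113 and 140 in shSRPK1, and 153 and 140 in NT. It passed the test between oeSRPK1 and shSRPK1 (log2 fold change 0.50 ± 0.14 SE, edgeR adjusted p = 0.0377). It did not pass between either of them and NT (edgeR adjusted p = 0.175 for oeSRPK1 and 0.36 for shSRPK1). Of 15 glioblastoma and astroglial markers, VIM and CD44 were high in every library, S100B, AQP4, SOX2, PTPRZ1 and FABP7 had 0 reads in all 6, and GFAP had 1 read over all 6. Transcripts of 12 muscle markers summed to 210 and 2490 CPM in oeSRPK1 1 and oeSRPK1 2, 2.64 and 13.9 in shSRPK1 1 and shSRPK1 2, and 1.75 and 2.47 in NT. In oeSRPK1 2 most of the sum was MYH7 (1270 CPM) and ACTA1 (897 CPM), while MYL1 and MB of the same list had 1 and 2 reads. Of endothelial, immune and neuron markers, CLDN5, PTPRC, CD3E and DCX were at 0 reads everywhere, and the endothelial and immune lists summed to at most 1.05 and 8.01 CPM in any library and the neuron list to between 37.5 and 96.9. In a culture, fewer cells that express a gene and less RNA per cell cannot be told apart.

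T98G cells held the transcripts of 9 of the 10 genes and almost none of CDH1. Per kilobase of mRNA, CDH6 was highest in NT at 36.3 ± 0.851 CPM per kb (SD, n = 2), followed by SNAI2 at 27.3 ± 0.0479 and ZEB1 at 20.8 ± 1.73. CDH11 (9.99 ± 0.974), TWIST1 (9.03 ± 0.9) and TWIST2 (8.54 ± 1.41) came next in CPM per kb, and neighbours among these 3 overlapped between libraries. CDH2 (6.51 ± 0.145) and SNAI1 (5.3 ± 0.497 CPM per kb) lay below them without overlap, and ZEB2 was lowest of those detected at 1.51 ± 0.0894. In shSRPK1 libraries CDH6 again had the highest mean level, 40.4 ± 3.89 CPM per kb, and SNAI2 followed at 31.1 ± 18.2, with 1 library at 18.2 and 1 at 43.9. In oeSRPK1 libraries the order differed, with ZEB1 at 19.3 ± 0.0286 and SNAI2 at 18.8 ± 0.857 CPM per kb above the others and CDH6 at 8.26 ± 0.469, within the range of TWIST1, TWIST2 and CDH11. The mRNA was the longest APPRIS principal transcript of each gene in GENCODE 29. With all annotated exons merged instead, CDH11 moved below SNAI1 in NT, at 5.12 ± 0.499 against 5.3 ± 0.497 CPM per kb, and the first 3 places were the same.

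**Figure D1:**
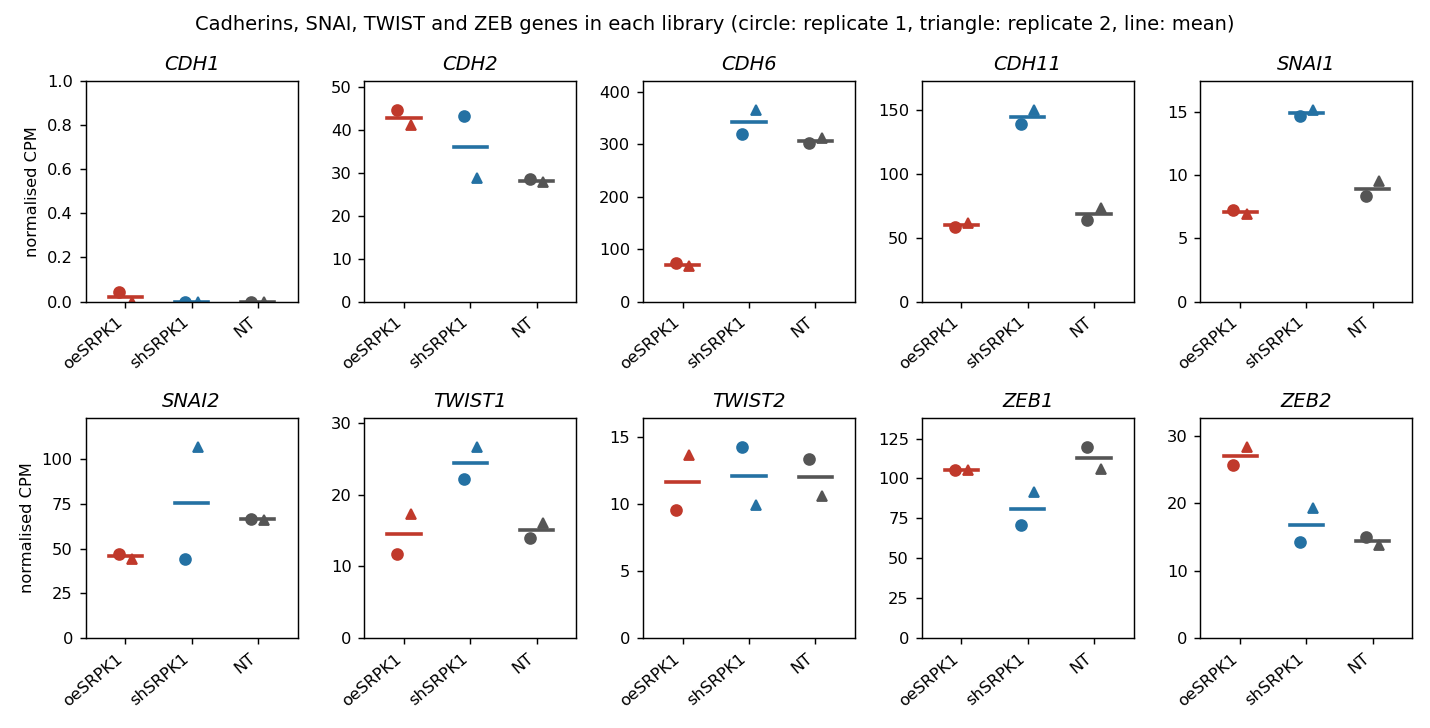
Normalised CPM (TMM scaling, linear axis from 0, a scale of its own in each panel) of the 10 genes in oeSRPK1, shSRPK1 and NT libraries, with circles for replicate 1, triangles for replicate 2 and lines for the mean. CDH6 lies at 72.8 and 67.2 CPM in oeSRPK1, far below the other 4 libraries, and CDH11 at 139 and 150 CPM in shSRPK1, above the others.

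CDH1, the epithelial cadherin (ENSG00000039068.17, GRCh38 chromosome 16, 68737225 to 68835548, plus strand), had 1 read in oeSRPK1 1 and 0 reads in each of the other 5 libraries. A count of 0 allows a level of up to 0.771 CPM in oeSRPK1 2, 0.22 and 0.278 in shSRPK1, and 0.303 and 0.22 in NT. These limits take 3 counts relative to the gene reads of a library, without TMM scaling, and cover counting error only. CDH1 was under the filter on low counts and was not tested, so 9 of the 10 genes entered the tests, each with reads in every library. 0 reads were also counted for MIR200A, MIR200B, MIR429, MIR200C, MIR141 and the transcript MIR200CHG in any library, which are the loci of the miR-200 family of microRNAs known to repress ZEB1 and ZEB2. Poly(A) libraries do not capture mature microRNAs, so these counts say nothing of their level.

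CDH6, a type II cadherin of the embryonic kidney and nervous system (ENSG00000113361.11, chromosome 5, 31193750 to 31329146, plus strand), was lower in oeSRPK1. It had 72.8 and 67.2 CPM in oeSRPK1, 319 and 366 in shSRPK1, and 302 and 312 in NT, from 1619 and 260, 4224 and 3823, and 3113 and 4424 reads. The oeSRPK1 libraries lay far below the other 4, and the shSRPK1 and NT libraries lay close together. The ratio of oeSRPK1 to NT was 0.228 (95% interval 0.186 to 0.281, log2 fold change -2.13 ± 0.13 SE, edgeR quasi-likelihood adjusted p = 0.000294). The ratio of oeSRPK1 to shSRPK1 was 0.205 (0.167 to 0.253, -2.29 ± 0.13, edgeR adjusted p = 0.000311). Ordered by p among 14732 genes, CDH6 stood 8 from the top in oeSRPK1 against NT and 5 from the top in oeSRPK1 against shSRPK1. These calls were kept under each of the 13 alternative settings. Between shSRPK1 and NT the ratio was 1.11 (95% interval 0.916 to 1.35, edgeR adjusted p = 0.44).

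CDH11, a cadherin of mesenchymal cells (ENSG00000140937.12, chromosome 16, 64943753 to 65126112, minus strand), was higher in shSRPK1. It had 58.4 and 61.5 CPM in oeSRPK1, 139 and 150 in shSRPK1, and 63.8 and 73.2 in NT. Both shSRPK1 libraries were above the other 4, and the oeSRPK1 libraries were just below NT. The ratio of shSRPK1 to NT was 2.11 (95% interval 1.74 to 2.55, 1.08 ± 0.12, edgeR adjusted p = 0.00433). The ratio of oeSRPK1 to shSRPK1 was 0.414 (0.341 to 0.502, -1.27 ± 0.12, edgeR adjusted p = 0.00153). Against NT, oeSRPK1 had a ratio of 0.873 (95% interval 0.72 to 1.06, edgeR adjusted p = 0.281). Without NT 1 or NT 2 the call in shSRPK1 against NT was lost (log2 fold change 0.98 and 1.18, edgeR adjusted p = 0.115 and 0.0536).

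CDH2, the cadherin most often set against CDH1 in descriptions of EMT (ENSG00000170558.7, chromosome 18, 27950966 to 28177446, minus strand), passed no test. It had 44.7 and 41.1 CPM in oeSRPK1, 43.3 and 28.8 in shSRPK1, and 28.6 and 27.8 in NT. The libraries shSRPK1 1 and shSRPK1 2 lay apart, with 1 near oeSRPK1 and 1 near NT, and the oeSRPK1 libraries did not overlap with NT. The ratio was 1.53 in oeSRPK1 against NT (95% interval 1.13 to 2.08, 0.61 ± 0.19, edgeR adjusted p = 0.0568), 1.28 in shSRPK1 against NT (0.948 to 1.74, edgeR adjusted p = 0.249) and 1.19 in oeSRPK1 against shSRPK1 (0.88 to 1.61, edgeR adjusted p = 0.361). The first passed with no filter on low counts (edgeR adjusted p = 0.00652), when only the oeSRPK1 and NT libraries were fitted (0.000246), and without shSRPK1 1 (0.000209) or shSRPK1 2 (0.00021). Without shSRPK1 2 the second passed (0.62, edgeR adjusted p = 0.000817), and without shSRPK1 1 the third passed (0.56, edgeR adjusted p = 0.00343).

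The make-up of the sum of CDH2, CDH6 and CDH11 per mRNA length differed with the levels of CDH6 and CDH11. The 3 detected cadherins summed to 27.4 and 26.4 CPM per kb in oeSRPK1, 67.9 and 71.7 in shSRPK1, and 51.6 and 53.9 in NT. Of this sum, CDH6 made up 31.3% and 30% in oeSRPK1, 55.4% and 60.1% in shSRPK1, and 69.1% and 68.3% in NT. CDH2 made up 37.6% and 36% in oeSRPK1, 14.7% and 9.27% in shSRPK1, and 12.8% and 11.9% in NT. CDH11 made up 31.1% and 34% in oeSRPK1, 29.8% and 30.6% in shSRPK1, and 18% and 19.8% in NT. CDH6 was thus the largest of the 3 in shSRPK1 and NT, and in oeSRPK1 CDH2 was, by a few percentage points. That make-up depends on the transcript length used. With all exons merged, oeSRPK1 had means of 8.66 CPM per kb for CDH2, 5.66 for CDH6 and 4.48 for CDH11, a wider spread with CDH2 again highest. These shares repeat the gene levels above and were not tested on their own.

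**Figure D2:**
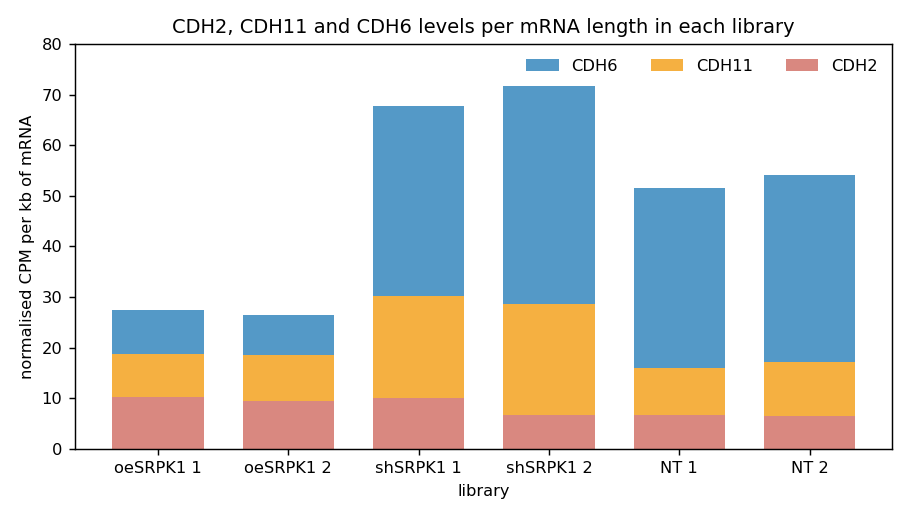
Stacked bars give the level in normalised CPM per kb of mRNA (axis from 0) of CDH6, CDH11 and CDH2 in each library, oeSRPK1 at the left, then shSRPK1, then NT. The bars reach 27.4 and 26.4 in oeSRPK1, 67.9 and 71.7 in shSRPK1 and 51.6 and 53.9 in NT, and most of the difference between oeSRPK1 and NT lies in the CDH6 segment.

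SNAI1, the zinc finger repressor Snail (ENSG00000124216.3, chromosome 20, 49982999 to 49988886, plus strand), was higher in shSRPK1. It had 7.29 and 6.98 CPM in oeSRPK1, 14.7 and 15.2 in shSRPK1, and 8.35 and 9.53 in NT. These levels rest on 27 reads in oeSRPK1 2 and between 86 and 194 in the others. The shSRPK1 libraries stood above the other 4, with the oeSRPK1 libraries lowest. The ratio of shSRPK1 to NT was 1.66 (95% interval 1.27 to 2.17, 0.73 ± 0.17, edgeR adjusted p = 0.0353). In oeSRPK1 SNAI1 had a ratio of 0.482 to shSRPK1 (0.364 to 0.638, -1.05 ± 0.18, edgeR adjusted p = 0.00702) and of 0.801 to NT (0.602 to 1.07, edgeR adjusted p = 0.241). The call in shSRPK1 against NT was lost under 7 of 13 settings: in DESeq2 (adjusted p = 0.0512), with a replicate block (edgeR adjusted p = 0.055), with the libraries of both groups alone (0.0883), and without oeSRPK1 1 (0.0885), oeSRPK1 2 (0.0911), NT 1 (0.345) or NT 2 (0.182). That in oeSRPK1 against shSRPK1 was lost without oeSRPK1 1 (-1.13, edgeR adjusted p = 0.103).

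SNAI2, the related repressor Slug (ENSG00000019549.7, chromosome 8, 48917604 to 48921740, minus strand), differed more between the shSRPK1 libraries than between groups. It had 47.1 and 44.2 CPM in oeSRPK1, 44.2 and 107 in shSRPK1, and 66.4 and 66.2 in NT. One shSRPK1 library was level with oeSRPK1 and the other was above all the rest, while the replicates of oeSRPK1 and of NT were close together and did not overlap. No comparison passed, with log2 fold changes of 0.18 ± 0.38 in shSRPK1 against NT, -0.53 ± 0.39 in oeSRPK1 against NT and -0.71 ± 0.39 in oeSRPK1 against shSRPK1 (edgeR adjusted p = 0.799, 0.384 and 0.239). In shSRPK1 against NT it passed as higher without shSRPK1 1 (0.69, edgeR adjusted p = 9.76e-05) and as lower without shSRPK1 2 (-0.58, edgeR adjusted p = 0.000873). In oeSRPK1 against NT it passed as lower when those 4 libraries alone were fitted (-0.55, edgeR adjusted p = 0.000192), and without shSRPK1 1 or shSRPK1 2 (-0.56 in both, edgeR adjusted p = 9.52e-05 and 0.000105). In oeSRPK1 against shSRPK1 it was -1.24 without shSRPK1 1 (edgeR adjusted p = 4.58e-08) and 0.02 without shSRPK1 2 (0.92).

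TWIST1, a basic helix-loop-helix factor of the cranial mesenchyme (ENSG00000122691.11, chromosome 7, 19020991 to 19117672, minus strand), had 11.8 and 17.3 CPM in oeSRPK1, 22.2 and 26.7 in shSRPK1, and 14 and 16.1 in NT. The shSRPK1 libraries were above the other 4, and oeSRPK1 overlapped with NT. In oeSRPK1 it was 0.57 times the shSRPK1 level (95% interval 0.406 to 0.798, -0.81 ± 0.21, edgeR adjusted p = 0.0302). In shSRPK1 it was 1.62 times the NT level without passing (1.17 to 2.23, 0.69 ± 0.20, edgeR adjusted p = 0.0692). The call was lost when the libraries of both groups were fitted alone (edgeR adjusted p = 0.0735) and without oeSRPK1 1 (-0.53, 0.266), NT 1 (0.0696) or NT 2 (0.0722). The ratio of shSRPK1 to NT passed with no filter (edgeR adjusted p = 0.00363), with a replicate block (0.0476), and without shSRPK1 1 (0.00244) or shSRPK1 2 (0.026).

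TWIST2, its close relative (ENSG00000233608.3, chromosome 2, 238848032 to 238910543, plus strand), had 9.54 and 13.7 CPM in oeSRPK1, 14.3 and 9.95 in shSRPK1, and 13.4 and 10.6 in NT. Its groups overlapped in every comparison and its log2 fold changes lay between -0.13 and 0.03 (edgeR adjusted p = 0.739 to 0.956). The 95% intervals of the ratio ran from 0.684 to 1.52 in shSRPK1 against NT and from 0.613 to 1.41 in oeSRPK1 against NT. Both TWIST genes were higher in oeSRPK1 2 than in oeSRPK1 1, and oeSRPK1 2 is the shallow library with 2490 CPM of muscle markers. The part of these markers in the TWIST levels was not tested. Without oeSRPK1 2, TWIST1 in oeSRPK1 against shSRPK1 was -1.04 (edgeR adjusted p = 0.0488).

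ZEB2, a zinc finger and homeodomain repressor (ENSG00000169554.15, chromosome 2, 144364364 to 144524583, minus strand), was higher in oeSRPK1. It had 25.6 and 28.4 CPM in oeSRPK1, 14.3 and 19.3 in shSRPK1, and 15 and 13.8 in NT. The oeSRPK1 libraries lay above the other 4, and shSRPK1 overlapped with NT. The ratio of oeSRPK1 to NT was 1.86 (95% interval 1.39 to 2.48, 0.89 ± 0.18, edgeR adjusted p = 0.0134). The ratio of oeSRPK1 to shSRPK1 was 1.6 (1.2 to 2.12, 0.68 ± 0.18, edgeR adjusted p = 0.0318). The call against NT was lost without oeSRPK1 1 (edgeR adjusted p = 0.125), oeSRPK1 2 (0.0816), NT 1 (0.103) or NT 2 (0.126). That against shSRPK1 was lost without the same libraries (edgeR adjusted p = 0.179, 0.141, 0.0768 and 0.0777) and when the libraries of both groups were fitted alone (0.0762). Without shSRPK1 1 it was kept at 0.43 (edgeR adjusted p = 0.0408).

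ZEB1, the other member of that family (ENSG00000148516.20, chromosome 10, 31318495 to 31529814, plus strand), had 105 CPM in both oeSRPK1 libraries, 70.7 and 91.3 in shSRPK1, and 120 and 106 in NT. The shSRPK1 libraries were the lowest, but its comparisons did not pass, at -0.48 ± 0.14 in shSRPK1 against NT, -0.11 ± 0.14 in oeSRPK1 against NT and 0.37 ± 0.14 in oeSRPK1 against shSRPK1 (edgeR adjusted p = 0.0726, 0.629 and 0.0978). The first passed with no filter on low counts (edgeR adjusted p = 0.0155), without shSRPK1 1 (-0.30, 0.0476) and without shSRPK1 2 (-0.67, 0.000138), and the third without shSRPK1 2 (0.53, 0.00109). Per mRNA length, ZEB1 exceeded ZEB2 by a ratio of 7.2 and 6.49 in oeSRPK1, 8.67 and 8.32 in shSRPK1, and 14 and 13.5 in NT. The ratio was lowest in oeSRPK1 and highest in NT, with no overlap between groups. It repeats the levels of ZEB1 and ZEB2 and was not tested on its own. No share of other gene pairs that separate in this way was taken. ZEB1 shares 366 exonic bases with ZEB1-AS1, which had 270 and 43 reads in oeSRPK1, 248 and 192 in shSRPK1, and 128 and 217 in NT. ZEB2 shares 1299 with ZEB2-AS1, which had 1 and 0 reads in oeSRPK1, 2 and 1 in shSRPK1, and 0 in both NT libraries. The strand setting of the counting is not given in the sources used here, so how reads in the shared bases were assigned is not known. Reads listed as ambiguous, which count for no gene, were 3.04% to 3.37% of a library's total.

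**Figure D3:**
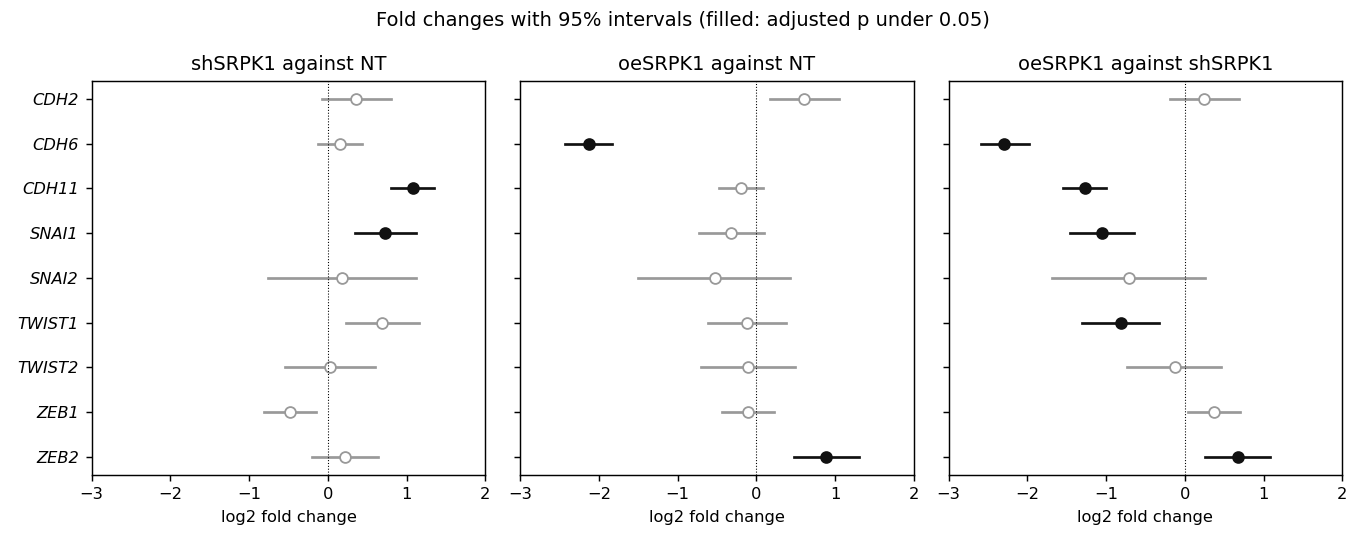
Log2 fold change (x axis) with its 95% interval for the 9 tested genes, with 1 panel for each of the 3 comparisons, filled where the edgeR adjusted p was under 0.05. CDH6 stands at -2.13 and -2.29 in the comparisons of oeSRPK1, while CDH11 stands at 1.08 in shSRPK1 against NT.

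The sequences that tie ZEB1 and ZEB2 together are the sites for the miR-200 family, shown here because this family is known to repress both genes. The mature microRNAs (RefSeq, GRCh38.p14, 5′ to 3′) fall into seeds of 2 kinds, which differ at 1 base, with bases 2 to 8 in capitals:
hsa-miR-200a-3p: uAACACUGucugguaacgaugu
hsa-miR-141-3p: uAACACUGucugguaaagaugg
hsa-miR-200b-3p: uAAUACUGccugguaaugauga
hsa-miR-200c-3p: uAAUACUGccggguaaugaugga
hsa-miR-429: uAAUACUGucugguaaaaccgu

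The complements of these seeds, CAGTGTT and CAGTATT, were searched on the transcript strand of the 3′ untranslated regions of GENCODE 29. ZEB1 held 8 matches in 1938 bases and ZEB2 held 9 in 5370 bases. At least 1 match was present in 37.1% of the untranslated regions within 20% of the length of that of ZEB1 and in 72.7% of those near the length of that of ZEB2, and at least as many matches in 0.0418% and 0.183%. These shares are of 2392 and 1090 regions, and each set includes the region of the gene itself. CDH6 held 2, CDH11 and SNAI2 held 1 each, and CDH1, CDH2, SNAI1, TWIST1 and TWIST2 held 0. A match is a description of the letters and not a site of measured binding. The first match to CAGTATT and the first to CAGTGTT of each gene are printed with the match in capitals, from GRCh38 chr10:31527624-31527643 and chr10:31528037-31528056 on the plus strand, and chr2:144389049-144389068 and chr2:144389233-144389252 on the minus strand:
ZEB1, CAGTATT: ttatcttatCAGTATTatca
ZEB1, CAGTGTT: catcagaatCAGTGTTtgtg
ZEB2, CAGTATT: accatacatCAGTATTttta
ZEB2, CAGTGTT: aattttgtaCAGTGTTaagg

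The E-box that SNAI and ZEB factors bind was searched as CAGGTG or its complement CACCTG, which covers both strands, in RefSeq promoter windows of 250 bases before to 50 after a start. Windows of 4 of the genes (CDH2, TWIST2, ZEB1 and ZEB2) were searched, 11 windows in all. No window of the other genes of the list was searched, so nothing is said of their promoters. Of 35116 windows of all genes, 20.6% held at least 1 match and 3.49% held 2 or more. These shares are of single windows and do not give how often the best of 11 windows would hold as many. The windows of CDH2, TWIST2 and ZEB2 held 0, and of the windows of ZEB1 1 held 1 match and 1 held 3. The last, picked because it held the most matches of the 11 windows, is printed with the matches in capitals (GRCh38.p14, chr10:31318966-31319265, plus strand):
ZEB1 promoter window: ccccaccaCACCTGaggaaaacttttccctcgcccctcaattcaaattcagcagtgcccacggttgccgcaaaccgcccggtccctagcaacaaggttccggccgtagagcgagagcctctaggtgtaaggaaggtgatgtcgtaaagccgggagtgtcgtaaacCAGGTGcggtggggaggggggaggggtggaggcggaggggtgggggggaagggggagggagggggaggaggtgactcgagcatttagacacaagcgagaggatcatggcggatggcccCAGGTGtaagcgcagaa

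Counted over the list, 2 of the 9 tested genes (CDH11 and SNAI1) were called higher and 0 lower in shSRPK1 against NT, where 9.18% of 14732 genes were called, 5.43% higher and 3.75% lower. The count was 0 without NT 1 or NT 2, where 0.182% and 0.362% of all genes were called. It was 5 without shSRPK1 1 and 6 without shSRPK1 2, where 25.9% and 29% of all genes were called, so the calls over all genes moved the same way. For oeSRPK1 against NT, 1 gene (ZEB2) was called higher and 1 (CDH6) lower, where 20.6% of all genes were called, 11.2% higher and 9.45% lower. Without oeSRPK1 1, oeSRPK1 2, NT 1 or NT 2 the call on CDH6 alone was made, where 1.94%, 6.36%, 2.38% and 3.17% of all genes were called. Without shSRPK1 1 or shSRPK1 2 there were 4 calls of 9, where 41.8% and 40.5% of all genes were called. With oeSRPK1 set against shSRPK1, 1 gene (ZEB2) was called higher and 4 (CDH6, CDH11, SNAI1 and TWIST1) lower, where 22.8% of all genes were called, 11.5% higher and 11.3% lower. There, fewer calls were made without oeSRPK1 1, oeSRPK1 2, NT 1 or NT 2 and more without shSRPK1 1 or shSRPK1 2. The calls over all genes moved the same way. The median log2 fold change of the 9 genes was 0.22 in shSRPK1 against NT, -0.12 in oeSRPK1 against NT and -0.71 in oeSRPK1 against shSRPK1, beside 0.01, 0 and 0 over all genes tested. Libraries did not overlap, as higher and lower, for 5 and 1 of the 9 genes in shSRPK1 against NT (28.8% and 28.7% of all genes). They did not overlap for 2 and 5 in oeSRPK1 against NT (35.9% and 34.6% of all genes), and for 2 and 4 in oeSRPK1 against shSRPK1 (31.8% and 30.5% of all genes). The comparisons share libraries, so their values for a gene are not independent of each other.

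The counts of the related lists stand beside the same shares over all genes, 5.43% higher and 3.75% lower in shSRPK1 against NT, 11.2% and 9.45% in oeSRPK1 against NT, and 11.5% and 11.3% in oeSRPK1 against shSRPK1. With no filter on low counts, 9.17%, 14.3% and 15.6% of all genes were called in these comparisons, in that order. With only the libraries compared, the shares were 0.903%, 44.2% and 10.4%. The list counts move with the libraries left out, as the calls over all genes do, and a count near the share of its setting is no result about a list.

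Among 31 other cadherins and cadherin-like genes, 10 had enough reads to be tested and 8 had 0 reads in every library. In shSRPK1 against NT 2 rose and 0 fell (list median 0.26), namely CDH24 (1.05 ± 0.21, edgeR adjusted p = 0.0247) and CELSR3, a large cadherin of axon guidance (0.55 ± 0.11, edgeR adjusted p = 0.0261). In oeSRPK1 against NT 0 rose and 1 fell (median -0.08), CELSR2 (-0.82 ± 0.22, edgeR adjusted p = 0.0342). In oeSRPK1 against shSRPK1 1 rose and 2 fell (median -0.34). CDH13, a cadherin anchored to the membrane by a lipid, had 179 and 147 CPM in oeSRPK1 and 82.8 and 40.1 in shSRPK1 and rose (1.41 ± 0.32, edgeR adjusted p = 0.0271), while CDH24 (-1.28 ± 0.22, edgeR adjusted p = 0.00765) and, on 11 and 6 reads in oeSRPK1, CDH7 (-1.91 ± 0.55, edgeR adjusted p = 0.0418) fell. CDH15, the cadherin of muscle, had 17.5 and 18.9 CPM in oeSRPK1, 18.9 and 16.4 in shSRPK1, and 12.9 and 13.7 in NT. The part of the muscle markers in the level of this cadherin was not tested. Without NT 1, NT 2, oeSRPK1 1 or oeSRPK1 2, 0 of these genes were called against NT. For oeSRPK1 against shSRPK1, 0 were called without oeSRPK1 1, and 0 higher and 1 lower without oeSRPK1 2, NT 1 or NT 2 or with the libraries of both groups alone, so the rise of CDH13 was lost in each of these.

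Of the catenins and adherens junction partners, 14 of 18 genes were tested. CTNNB1 (beta-catenin) had 259 and 241 CPM in oeSRPK1, 222 and 208 in shSRPK1, and 264 and 256 in NT. CTNND1 (p120-catenin) had 195 and 175 CPM in oeSRPK1, 195 and 178 in shSRPK1, and 182 and 180 in NT, and neither gene passed a test. For oeSRPK1 against NT, 5 genes rose and 1 fell (median 0.27). They were led by IQGAP1, a scaffold protein that binds actin regulators (0.90 ± 0.13, edgeR adjusted p = 0.00404), AFDN (afadin, 0.75 ± 0.14, 0.0108) and CTNNA1, the catenin that links cadherins to actin (0.63 ± 0.12, 0.011), while NECTIN1 fell (-1.45 ± 0.23, 0.00555). NECTIN2 (0.85 ± 0.11, edgeR adjusted p = 0.00887) and AFDN (0.72 ± 0.14, 0.0246) rose and 0 fell in shSRPK1 against NT (median 0.20). In oeSRPK1 against shSRPK1 4 rose and 2 fell (median 0.07), with IQGAP1 (0.78 ± 0.13, edgeR adjusted p = 0.00701) and the desmosome protein JUP (1.19 ± 0.29, 0.0242) among the higher. PKP4 (-0.61 ± 0.13, edgeR adjusted p = 0.0153) and NECTIN2 (-0.45 ± 0.11, 0.0287) were lower. Without NT 1 0 genes of this list were called against NT, and without oeSRPK1 1 0 were called in either comparison of oeSRPK1. For oeSRPK1 against shSRPK1, 1 was called higher and 0 lower without oeSRPK1 2, and 1 higher and 1 lower without NT 1 or NT 2. Of 14 tested genes for the processing and turnover of cadherins, 4 rose and 1 fell in oeSRPK1 against NT (median 0.17), 2 rose and 0 fell in oeSRPK1 against shSRPK1 (median 0.09), and 0 were called in shSRPK1 against NT (median 0.12). MMP3, a protease that can cut E-cadherin (0.86 ± 0.16, edgeR adjusted p = 0.00976), PSENEN, a gamma-secretase subunit (0.94 ± 0.20, 0.0167), and MDM2 (0.49 ± 0.11, 0.0214) rose in oeSRPK1 against NT and the membrane protease MMP14 fell (-0.43 ± 0.11, 0.0336). CBLL1, a ubiquitin ligase of E-cadherin, rose in oeSRPK1 against shSRPK1 (0.70 ± 0.12, edgeR adjusted p = 0.00824), as did MDM2 (0.40 ± 0.11, 0.0393). Calls of that list against NT were 0 without NT 1, NT 2, oeSRPK1 1 or oeSRPK1 2. For oeSRPK1 against shSRPK1, they were 0 without oeSRPK1 1 or oeSRPK1 2 and 1 without NT 1 or NT 2.

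Of 35 epithelial genes known to be repressed in EMT, 15 were tested. In oeSRPK1 against NT 6 rose and 0 fell (median 0.90), in shSRPK1 against NT 1 rose and 1 fell (median 0.41), and in oeSRPK1 against shSRPK1 3 rose and 0 fell (median 0.41). DSP, the desmosomal plakin, had 55 and 6 reads in oeSRPK1, 5 and 6 in shSRPK1, and 1 and 3 in NT, and rose in oeSRPK1 against NT (edgeR adjusted p = 0.00515). The epithelial factor ELF3 did likewise on 41 and 7 reads in oeSRPK1, 2 and 1 in shSRPK1, and 3 and 7 in NT (edgeR adjusted p = 0.0161). In CPM, DSP had 2.47 and 1.55 in oeSRPK1 and at most 0.574 elsewhere, and ELF3 had 1.84 and 1.81 and at most 0.494 elsewhere. Both passed the filter on low counts only through oeSRPK1, the group where they are high. They are among the 6 and the 3 genes counted as higher, and their calls are no evidence about the list. The mucin MUC1 (1.31 ± 0.25, edgeR adjusted p = 0.0111) and the desmosome protein PKP3 (1.18 ± 0.26, 0.0183) also rose in oeSRPK1 against NT, and MUC1 rose (1.20 ± 0.25, 0.027) and CD24 fell (-1.10 ± 0.23, 0.0284) in shSRPK1 against NT. The genes higher in oeSRPK1 than in shSRPK1 were ELF3 (3.76 ± 0.56, edgeR adjusted p = 0.00513), DSP (2.20 ± 0.47, 0.0161) and TJP1, a scaffold of tight junctions (1.12 ± 0.28, 0.0302). CLDN3, MARVELD2, MARVELD3, GRHL2 and OVOL2 had 0 reads in every library. The 8 epithelial cell markers summed to 78.7 and 78.8 CPM in oeSRPK1, 77.3 and 54.8 in shSRPK1, and 50.9 and 55.7 in NT, nearly all of it KRT18 and KRT8. EPCAM had at most 0.585 CPM, KRT5, KRT14 and KRT19 at most 0.151 and CDH1 at most 0.045. Without oeSRPK1 1, NT 1 or NT 2 0 of the epithelial genes were called in oeSRPK1 against NT, and 1 without oeSRPK1 2. In shSRPK1 against NT 0 were called without oeSRPK1 1, oeSRPK1 2, NT 1 or NT 2 or with the libraries of both groups alone. With oeSRPK1 set against shSRPK1, 0 were called without oeSRPK1 1, 2 without oeSRPK1 2 or NT 1, and 1 without NT 2.

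The 30 mesenchymal genes were all tested, and some rose in each comparison with NT. In shSRPK1 against NT 11 rose and 0 fell (median 0.56), and in oeSRPK1 against NT 9 rose and 2 fell (median 0.33). TNC (tenascin C) had 99.3 and 73.9 CPM in oeSRPK1, 48.1 and 38.4 in shSRPK1, and 17.5 and 21.3 in NT, and rose in both (oeSRPK1 2.17 ± 0.19, edgeR adjusted p = 0.000682; shSRPK1 1.16 ± 0.19, 0.0149). The receptor kinase AXL (0.95 ± 0.15, edgeR adjusted p = 0.00601) and ITGA5, the fibronectin receptor subunit (1.47 ± 0.25, 0.00845), rose in oeSRPK1 against NT. The collagen COL5A2 (0.93 ± 0.12, edgeR adjusted p = 0.00841), the matrix protein SPARC (1.14 ± 0.20, 0.0185) and tropomyosin TPM1 (0.90 ± 0.16, 0.0199) rose in shSRPK1. VIM, the intermediate filament of mesenchymal cells, had 2700 and 2550 CPM in oeSRPK1, 2760 and 1740 in shSRPK1, and 1830 and 2120 in NT and passed in no comparison (edgeR adjusted p = 0.217 for oeSRPK1 and 0.608 for shSRPK1 against NT). For oeSRPK1 against shSRPK1, 5 rose and 8 fell (median -0.15), with COL5A2 (-1.11 ± 0.12, edgeR adjusted p = 0.00229), the protease MMP2 (-0.98 ± 0.13, 0.00333) and the receptor PDGFRB (-1.08 ± 0.15, 0.00392) among the lower. Without NT 1 or NT 2 the genes called higher were 0 in shSRPK1 and 2 in oeSRPK1 against NT. In shSRPK1 against NT 3 were called higher without oeSRPK1 1 or oeSRPK1 2, and 1 with the libraries of both groups alone. Without oeSRPK1 1 4 were called higher and 0 lower in oeSRPK1 against NT, and 0 were called in oeSRPK1 against shSRPK1. With NT 1 or NT 2 left out that last comparison had 4 higher and 4 lower, and 5 higher and 3 lower without oeSRPK1 2.

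Other EMT transcription factors moved in both directions. Of 20 tested, 4 rose and 2 fell in shSRPK1 against NT (median 0.06), 5 rose and 4 fell in oeSRPK1 against NT (median 0.13), and 5 rose and 5 fell in oeSRPK1 against shSRPK1 (median -0.02). SOX9, a factor of neural crest and glia, rose in oeSRPK1 (1.51 ± 0.12, edgeR adjusted p = 0.000454) and in shSRPK1 (0.64 ± 0.12, 0.021) against NT. HMGA2, a chromatin protein (1.80 ± 0.22, edgeR adjusted p = 0.00226), rose and ID2 (-1.11 ± 0.14, 0.00238) fell in oeSRPK1 against NT. ID1, an inhibitor of helix-loop-helix factors such as the partners of TWIST1, had 46.4 and 61.5 CPM in oeSRPK1, 129 and 138 in shSRPK1, and 70.5 and 78.4 in NT. It rose in shSRPK1 against NT (0.84 ± 0.15, edgeR adjusted p = 0.0187), as did RUNX2 (0.86 ± 0.13, 0.0114), and ID1 was lower in oeSRPK1 than in shSRPK1 (-1.33 ± 0.15, 0.00245). FOXC1 fell in shSRPK1 against NT (-0.73 ± 0.16, edgeR adjusted p = 0.0343) and was higher in oeSRPK1 than in shSRPK1 (0.99 ± 0.17, 0.00708), as were SOX9 (0.88 ± 0.12, 0.00373) and ETS1 (0.82 ± 0.13, 0.00607). TCF3, a partner of TWIST factors that can repress CDH1, had 74.3 and 81.9 CPM in oeSRPK1, 81.9 and 83.9 in shSRPK1, and 78.9 and 76.6 in NT and passed no test. Without NT 1 or NT 2 0 genes of this list were called in shSRPK1 against NT, and without oeSRPK1 1 or oeSRPK1 2 1 was. For oeSRPK1 against NT, 2 were higher and 0 lower without oeSRPK1 1, and 2 higher and 2 lower without oeSRPK1 2, NT 1 or NT 2. For oeSRPK1 against shSRPK1, 0 were higher and 1 lower without oeSRPK1 1, and 3 higher and 1 to 3 lower without oeSRPK1 2, NT 1 or NT 2.

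Of 30 tested co-repressors and turnover factors of the EMT regulators, 1 rose and 0 fell in shSRPK1 against NT (median 0), 4 rose and 0 fell in oeSRPK1 against NT (median 0.05), and 3 rose and 3 fell in oeSRPK1 against shSRPK1 (median 0.13). The deacetylase SIRT1 (0.91 ± 0.20, edgeR adjusted p = 0.017), AJUBA, a LIM protein that binds SNAI1 (0.83 ± 0.20, 0.0238), BTRC, the ubiquitin ligase subunit that marks SNAI1 for degradation (0.49 ± 0.13, 0.0291), and CTBP2, a co-repressor of ZEB1 (0.46 ± 0.12, 0.0361), rose in oeSRPK1 against NT. EZH2, the histone methyltransferase of Polycomb, rose in shSRPK1 against NT (0.61 ± 0.13, edgeR adjusted p = 0.0277) and was lower in oeSRPK1 than in shSRPK1 (-0.58 ± 0.13, 0.0183), as was EHMT2 (-0.80 ± 0.19, 0.0237). SIRT1 (0.95 ± 0.20, edgeR adjusted p = 0.0146) and CSNK1A1 (0.51 ± 0.13, 0.0294) were higher in oeSRPK1 than in shSRPK1. All calls of this list against NT were lost without NT 1, NT 2, oeSRPK1 1 or oeSRPK1 2. In oeSRPK1 against NT 2 were higher and 4 lower with no filter on low counts, where 14.3% of all genes were called. There were 7 higher and 5 lower with the libraries of both groups alone, where 44.2% of all genes were called. With oeSRPK1 set against shSRPK1, 0 were called without oeSRPK1 1 or oeSRPK1 2, and 1 without NT 1 or NT 2. Of 23 tested genes for signals that can induce EMT, 7 rose and 2 fell in oeSRPK1 against NT (median 0.27), 7 rose and 0 fell in oeSRPK1 against shSRPK1 (median 0.22), and 1 rose and 1 fell in shSRPK1 against NT (median 0.10). TGFBR1, a receptor for TGF-beta, had 77.7 and 63.8 CPM in oeSRPK1, 26.9 and 29.4 in shSRPK1, and 39.8 and 37.3 in NT, and rose in oeSRPK1 against NT (0.89 ± 0.14, edgeR adjusted p = 0.00515) and against shSRPK1 (1.34 ± 0.14, 0.00176). The cytokines IL6 (2.53 ± 0.17, edgeR adjusted p = 0.000378) and LIF (1.74 ± 0.14, 0.000454) rose in oeSRPK1 against NT and were higher in oeSRPK1 than in shSRPK1 (2.21 ± 0.17, 0.000684, and 1.24 ± 0.14, 0.00225). MET, the receptor of hepatocyte growth factor (1.56 ± 0.21, edgeR adjusted p = 0.00312), rose in oeSRPK1 against NT, and NOTCH2 was higher in oeSRPK1 than in shSRPK1 (0.72 ± 0.14, 0.0109). In shSRPK1 against NT the co-receptor TGFBR3 fell (-1.24 ± 0.17, edgeR adjusted p = 0.0094) and TGFBR2 rose (0.52 ± 0.12, 0.0382). The ligands TGFB1 and TGFB2 passed in no comparison (edgeR adjusted p from 0.162 to 0.748 and from 0.0758 to 0.924). Of the signal list, 2 genes were called higher in oeSRPK1 against NT without oeSRPK1 1, NT 1 or NT 2, and 0 genes were called in shSRPK1 against NT without NT 1 or NT 2. For oeSRPK1 against shSRPK1, 2 were higher without oeSRPK1 1, 4 without oeSRPK1 2 or NT 2 and 5 without NT 1. There, 6 were higher and 3 lower with no filter on low counts, where 15.6% of all genes were called.

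**Figure D4:**
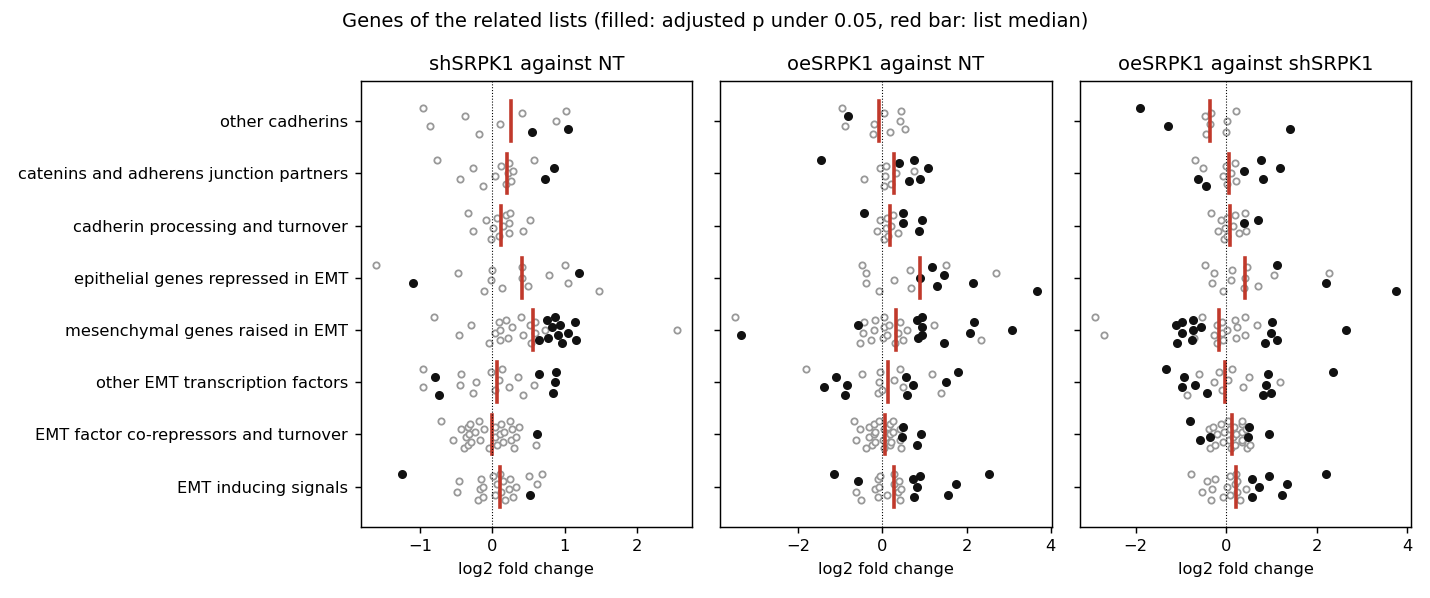
Each point is the log2 fold change (x axis, a range of its own in each panel) of 1 tested gene of the list named at the left, filled where the edgeR adjusted p was under 0.05, and a red bar marks the list median. Of the 30 mesenchymal genes, 11 filled points lie above 0 and 0 below in shSRPK1 against NT, and 5 lie above and 8 below in oeSRPK1 against shSRPK1.

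For each of the 5 genes with a call, the 3 genes with the most similar profile over the 6 libraries were found among those with a mean of at least 1 on the log2 CPM scale, by the root mean square difference of log2 CPM centred on each gene's mean. For CDH6 they were GSTM2, DNM1 and RAB7B, at differences of 0.165, 0.179 and 0.193. For CDH11 they were ENSG00000271857, LINC00622 and CFI (0.0817, 0.0822 and 0.0879), and for SNAI1 NFATC4, ENSG00000124593 and ERRFI1 (0.0524, 0.0572 and 0.0625). TWIST1 was nearest to SSPOP, RAB24 and TRMT1 (0.0332, 0.0587 and 0.0882), and ZEB2 to MTMR14, TMEM106A and TRAPPC6B (0.0673, 0.0823 and 0.0969). With 6 libraries in 3 groups, many genes share a profile, and the likeness is a description of these libraries.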

How the data were processed

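The authors deposited raw read counts per Ensembl gene, 1 table for each of 6 libraries. The submitters' processing notes name FastQC, Trimmomatic, STAR 2.5.3 and the build hg38, while the counting tool, annotation release and strand setting are not given in the sources used here. The last 5 entries of a table name no gene and were not used for normalisation or testing. Reads outside annotated genes were 8.13% to 11.1% and reads aligned to several places 12.0% to 13.1% of a library's total. Of 60483 ids, 56321 took a symbol from the gene name table and 432 from GENCODE 29, and positions and mRNA lengths come from GENCODE 29 (GRCh38). Genes were kept with filterByExpr (minimum count 10, minimum total 15), which left 14732. TMM scaling, glmQLFit with robust estimation and glmQLFTest (edgeR 4.0.16, R 4.3.3) were fitted to all 6 libraries, with 1 shared estimate of the spread, and a Benjamini-Hochberg adjusted p over all genes tested under 0.05 made a call. Fold changes are log2 ± SE, and SD with n = 2 is given for levels. Alternatives used DESeq2 1.42.0 and limma-voom (limma 3.58.1) among others. The edgeR steps were also run on simulated data with the same spread for every gene and group. That does not cover replicates that lie further apart in 1 group than in another. Named genes were the 10 genes, at most 4 called genes per list and comparison, by lowest adjusted p, and the nearest 3 profiles. Named outside this rule, after their values were seen, were CDH15, CTNNB1, CTNND1, VIM, TCF3, TGFB1, TGFB2, the markers given as examples (such as CD44, GFAP, EPCAM and the keratins), the antisense genes ZEB1-AS1 and ZEB2-AS1, the microRNA loci and genes at 0 reads. Some genes that the rule picks are counted in their lists but not reported here. The genes and lists were chosen with earlier results of these data known.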

Additional observations from a re-analysis of the deposited data

How the results depend on the processing

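Over 27 fold changes (9 genes in 3 comparisons) and 13 alternatives, 308 of 351 values kept their direction and side of the threshold, or were uncalled on both sides, 23 lost a call, 19 gained one and 1 reversed, SNAI2 in shSRPK1 against NT, at -0.58 without shSRPK1 2 and 0.69 without shSRPK1 1; the cause was not tested. With no filter on low counts, 4 of the genes were called in shSRPK1 against NT (2616 genes in all against 1352, a share of 9.17% against 9.18%, since more genes were tested), and DESeq2 called 1. When only the libraries compared were fitted, 1, 4 and 3 of the genes were called (shSRPK1 against NT first, then oeSRPK1 against NT, then oeSRPK1 against shSRPK1), and 129, 6331 and 1505 of all genes, against 1352, 3036 and 3361. Leaving out 1 library at a time gave 0 to 6, 1 to 4 and 2 to 7 of the genes, and 29 to 4595, 293 to 6415 and 144 to 6152 of all genes. The single library left in a group was taken to have the spread of the others. Scaling by DESeq2 size factors, upper-quartile scaling and limma-voom made the same calls on the 10 genes. Samples share only a replicate number: the differences between replicates 1 and 2 correlated at 0.0235, -0.0186 and 0.0104 between groups. With a replicate block 2, 2 and 5 of the genes were called, as without it, with TWIST1 (edgeR adjusted p = 0.0476) in place of SNAI1 (0.055) in shSRPK1 against NT, and 1006, 2639 and 2846 of all genes. Depth was lowest in oeSRPK1 2, where SNAI1 had 27 reads.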
